A study of Mus musculus with 18 samples.

Results

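Collagens, laminins and the enzymes that cross-link, cleave or protect them build the matrix outside cells, and their transcripts were examined here in mouse hippocampus with altered levels of the microRNAs miR-132 and miR-212. Members were chosen by gene symbol, with earlier results of these data known. They were the numbered Col, Lama, Lamb, Lamc, Mmp and Timp genes and every Lox and Adamts gene, with Col8a1 left out by the rule. The choice gave 58 of the 11738 gene symbols in 3 count tables. Of these, 50 of 10541 genes were in the table of the miR-132/212 deletion, 50 of 10799 in that of tTA::miR132 and 10 of 4618 in that of tTA::miR212, and 9 were in all 3. One match, Col4a3bp, is a ceramide transfer protein and not a collagen.

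The animals were C57BL/6 mice of unstated age. CaMKII-Cre::miR-132/212 f/f mice carry a floxed miR-132/212 locus and a Cre recombinase under the CaMKII promoter, which is active in excitatory forebrain neurons, so other cells keep the locus. The tTA::miR132 and tTA::miR212 mice carry the tetracycline transactivator and a transgene for the named microRNA. Each of these 3 genotypes was set against its own nontransgenic controls. As the controls are named only as nontransgenic, what Cre or tTA does by itself cannot be told apart from the microRNA's effect. Polyadenylated hippocampal RNA was sequenced, and cDNA of 6 animals was pooled into 3 replicates per group. The tables hold 2 libraries a group for the deletion and for tTA::miR132 (the third was not analysed here) and 3 a group for tTA::miR212. Libraries are numbered as in the tables, and the numbers are tied to no single animal pool.

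Basement membranes are thin sheets around vessels, meninges and the choroid plexus, in which trimers of laminin alpha, beta and gamma chains and a network of collagen IV are held together. Fibril-forming collagens give tensile strength, lysyl oxidases cross-link them, matrix metalloproteinases (MMPs) and ADAMTS proteases cleave matrix proteins and proteoglycans, and tissue inhibitors of metalloproteinases (TIMPs) block these enzymes. In the brain most collagens come from vascular, meningeal and glial cells, while a few, such as Col19a1 and Col25a1, are made by neurons. Because whole tissue was sequenced, fewer cells of a type and less RNA per cell cannot be told apart. A microRNA represses a transcript mainly by pairing its seed with a matching stretch in the 3′ untranslated region (UTR).

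The mature microRNAs are shown because they share their seed, bases 2 to 8, given in capitals. Both lie on the plus strand of chromosome 11 (RefSeq, GRCm38.p6), miR-132-3p at chr11:75173723-75173744 and miR-212-3p at chr11:75173443-75173464.
miR-132-3p: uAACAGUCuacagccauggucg
miR-212-3p: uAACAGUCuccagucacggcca
The DNA letters complementary to that seed, GACTGTT, were searched in the longest annotated 3′ UTR of each member on the transcript strand (GENCODE M1 on NCBIM37, the build of the deposited counts, also called mm9). They occurred in 12 of 58 members, once in each. Shown here with 10 bases on either side and the match in capitals are 5 of them whose libraries separated the groups in at least 1 table. Col19a1 holds its match at chr1:24270904-24270930 (minus strand), Col5a2 at chr1:45432854-45432880 (minus), Mmp16 at chr4:18043993-18044019 (plus), Col8a2 at chr4:125990348-125990374 (plus) and Adamts5 at chr16:85861599-85861625 (minus).
Col19a1: aactatgtgaGACTGTTtatcaagaag
Col5a2: caagaactgtGACTGTTtaaagttcat
Mmp16: caggatgctaGACTGTTgggacagtca
Col8a2: ttcatgatcaGACTGTTaggggaggct
Adamts5: gcacttaaaaGACTGTTtccacaccat
Of the 12 matches, that of Col8a2 was the 1 followed by an A. Further members with a match included Adamts1, Adamts3, Col1a1, Col2a1, Col4a3bp and Mmp9. A match is a description of the letters and does not show that the microRNA binds there.

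Library totals were 9408155 and 9702801 counts for the deletion and 9432812 and 8190899 for its controls, 14772907 and 8772987 for tTA::miR132 and 9899963 and 8301385 for its controls, and 3140536 to 3739682 over all transcripts in the tTA::miR212 table. Deletion library 1 stood apart, where 1047 of 10541 genes (9.93%) had no read. Deletion library 2 had 120 such genes and the controls had 90 and 73. With tTA::miR132, library 1 had 262 and library 2 had 92, against 155 and 485 (4.49%) in the controls. Of the 50 members in that table, 8 had no read in tTA::miR132 library 1 (16%, against 2.43% of all genes) and 1 in library 2, against 0 and 5 in the controls. The biological coefficient of variation fitted by edgeR was 74.2% in the deletion table, 60.7% in the tTA::miR132 table and 8.58% in the tTA::miR212 table. All levels below are counts per 1000000 of the library's raw total (CPM), and in the tTA::miR212 table that total runs over 1 transcript per gene (1299369 to 1544923 counts). The tables were normalized separately, so levels are compared within a table.

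In no comparison did a member pass edgeR's quasi-likelihood test at an adjusted p under 0.05, and neither did any other gene. In the deletion comparison 0 of 49 members tested were called (0% of 10487 genes), and 1, Col19a1, had an unadjusted p under 0.05 (0.839% of genes). With tTA::miR132 0 of 50 members were called (0% of 10734 genes), and 2, Lox and Col1a2, had an unadjusted p under 0.05 (2.82% of genes). With tTA::miR212 the counts were 0 of 10 at the adjusted threshold (0% of 4618 genes) and 0 of 10 at the unadjusted one (5.63% of genes). DESeq2 called 0 of 49, 1 of 50 (Lox) and 0 of 10 members in these comparisons (0.0477%, 0.363% and 0% of genes), and limma-voom called 0 of 49, 0 of 50 and 0 of 10 (0%, 0.0186% and 0% of genes). In the authors' deposited table q was under 0.05 for 34 of these 49 members in the deletion comparison (54.6% of genes), for 30 of 50 with tTA::miR132 (53.3% of genes) and for 0 of 10 with tTA::miR212 (0.0866% of genes). The sources used here do not name the test behind those q values.
The calls depended on single libraries. Without deletion library 2, library 1 alone was set against the 2 controls and assumed to vary as they do, and edgeR then called 28 of 50 members, 15 higher and 13 lower (43% of genes). Without deletion library 1 it called 0 of 49 members (0.0763% of genes). With tTA::miR132, 1 of 50 was called without tTA::miR132 library 2 (Mmp15; 0.0371% of genes) and 1 without control library 1 (Lox; 1.03% of genes).

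The summed level of the members was about as high in mutant as in control hippocampus. It was 2250 and 1917 CPM in the deletion libraries, against 1817 and 2088 CPM in their controls, so that the groups overlapped. With tTA::miR132 it was 1782 and 1998 CPM, against 1912 and 2000 CPM in the controls. Timp2 alone supplied between 503 and 772 CPM of each of these sums. Most members were scarce: their median control level was 12.3 CPM in the deletion table, against 45.3 CPM over all genes, and 15.1 CPM in the tTA::miR132 table, against 42.6 CPM over all genes.

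**Figure D1:**
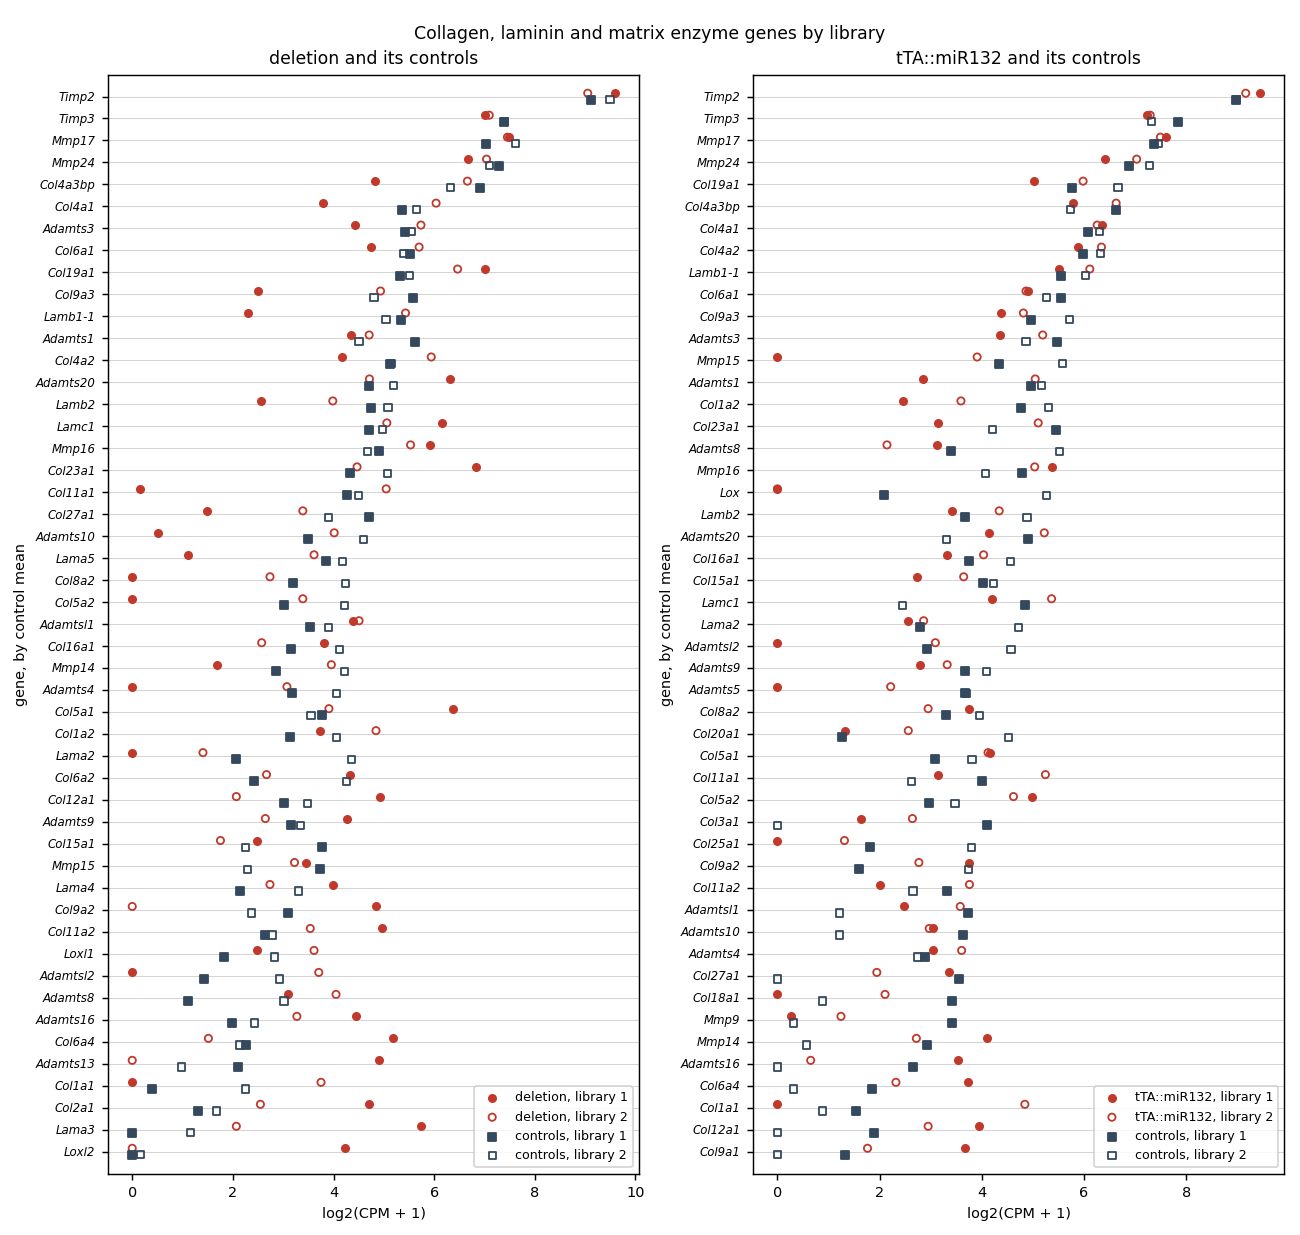
Level of 49 members in each library of the deletion table (left) and 49 in that of the tTA::miR132 table (right), as log2(CPM + 1), with genes ordered by control mean. Red circles are the mutant libraries and dark squares their controls; the libraries lie close together for Timp2, Timp3, Mmp17 and Mmp24 and scatter widely for the scarcer genes, with several at 0.

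Replicate libraries differed from each other more than the group means did in the deletion group and in both groups of the tTA::miR132 table, and less in the deletion's controls. A mean of 2 libraries varies less than a single library, so these unlike gaps cannot decide whether the groups differ. For the median member, deletion library 1 and library 2 differed 3.11-fold and the 2 control libraries 1.45-fold, while the group means differed 1.85-fold, all on the CPM + 1 scale. With tTA::miR132 the replicate libraries differed 1.97-fold, their controls 1.85-fold and the group means 1.71-fold. The 4 members of 100 CPM or more, Timp2, Timp3, Mmp17 and Mmp24, were steadier, with a median of 1.17-fold between the deletion libraries, 1.21-fold between their controls and 1.18-fold between the group means.

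**Figure D2:**
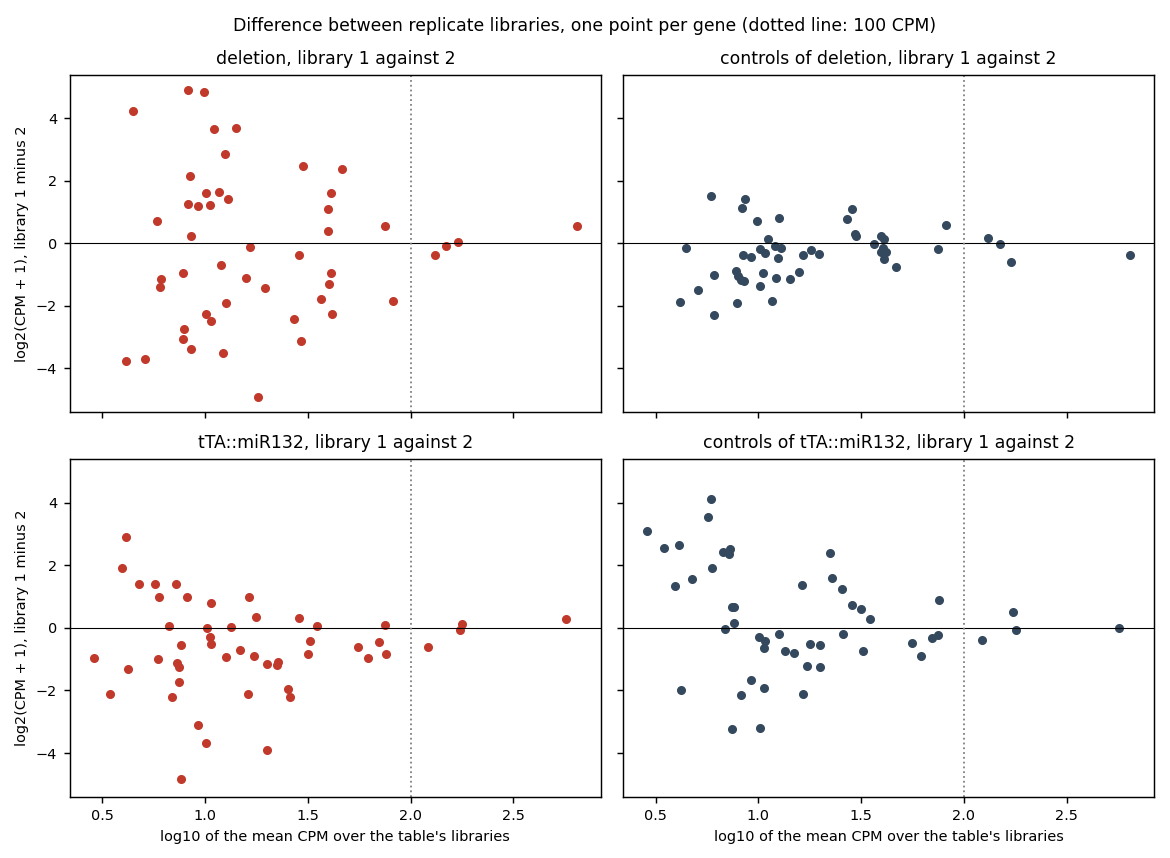
Difference between library 1 and library 2 of the same group in log2(CPM + 1), for each member, against the log10 of its mean CPM, with the deletion and its controls above and tTA::miR132 and its controls below. Points right of the dotted line, at 100 CPM, have median gaps of 0.20 to 0.28 in the panels, against 0.66 to 1.81 left of it. Over all members the deletion libraries spread most widely, with a median gap of 1.64 on the log2 scale against 0.54 in their controls.

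Collagen IV, the network collagen of basement membranes, was represented by its most widespread chains, Col4a1 and Col4a2. Col4a1 had 12.8 and 64.7 CPM in the deletion libraries, against 40.2 and 49 CPM in their controls, and Col4a2 had 16.9 and 60.5 CPM, against 33.9 and 34.7 CPM. For both genes the control values lay between those of the deletion libraries. The log2 fold changes, -0.20 ± 0.81 (SE) for Col4a1 and 0.18 ± 0.74 for Col4a2, had an edgeR adjusted p of 0.999, and each took the other sign without one of the deletion libraries. With tTA::miR132, Col4a1 had 80.6 and 75.6 CPM, against 66.6 and 77.8 CPM in controls, and Col4a2 had 58.3 and 80.1 CPM, against 62.4 and 79.0 CPM. These groups overlapped as well.

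The ratio of Col4a2 to Col4a1 counts lay between 0.708 and 1.325 over all 14 libraries of the 3 tables. It was 1.325 and 0.935 in the deletion libraries, both above the 0.844 and 0.708 of their controls. With tTA::miR132 and with tTA::miR212 the ratios of the groups overlapped. Differences in this ratio were not tested. Col4a1 and Col4a2 face away from each other on chromosome 8, and their annotated first exons overlap by 22 bases in GENCODE M1. Their promoters are shown because the windows overlap: 250 bases before to 50 bases after each start, from RefSeq on GRCm38.p6, with Col4a1 at chr8:11312777-11313076 (minus strand) and Col4a2 at chr8:11312555-11312854 (plus strand). Capitals mark GGGCGG, the core of a GC box, and CCAAT, each on either strand.
Col4a1: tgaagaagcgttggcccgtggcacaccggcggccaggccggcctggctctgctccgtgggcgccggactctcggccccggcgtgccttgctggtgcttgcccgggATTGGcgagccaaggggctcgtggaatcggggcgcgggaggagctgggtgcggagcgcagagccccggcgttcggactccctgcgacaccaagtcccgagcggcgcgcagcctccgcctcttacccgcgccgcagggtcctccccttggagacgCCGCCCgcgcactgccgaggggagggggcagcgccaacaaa
Col4a2: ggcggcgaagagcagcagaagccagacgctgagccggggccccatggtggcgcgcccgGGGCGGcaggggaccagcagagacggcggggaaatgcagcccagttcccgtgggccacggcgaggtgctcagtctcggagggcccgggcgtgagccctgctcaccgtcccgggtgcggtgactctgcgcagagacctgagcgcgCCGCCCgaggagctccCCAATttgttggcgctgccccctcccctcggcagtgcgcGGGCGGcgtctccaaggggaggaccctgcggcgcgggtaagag
The Col4a1 window held 1 GC box core and 1 CCAAT, and the Col4a2 window held 3 and 1, while TATAAA was found in neither. Of 32544 promoters of the same length, 35.9% held GGGCGG, 37.4% held CCAAT and 13.6% held TATAAA. Where the windows overlap, a motif is counted in both.

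Laminin chains differed in direction. In the deletion table the beta 2 chain Lamb2 had 4.89 and 14.8 CPM, against 25.9 and 32.8 CPM in controls, with both deletion libraries below both controls. Its log2 fold change of -1.57 ± 1.02 (SE) had an edgeR adjusted p of 0.999. The gamma 1 chain Lamc1, part of most laminin trimers, had 70.7 and 32.4 CPM, against 25.1 and 30.4 CPM in controls, a log2 fold change of 0.93 ± 0.63 with the same adjusted p. It was 0.21 without deletion library 1 and 1.42 without library 2.
Lamb1-1, the beta 1 chain, had 3.93 and 42.2 CPM in the deletion libraries, on either side of the 39.5 and 32.0 CPM of the controls. Its ratio to its usual partner Lamc1 therefore ran from 0.056 in deletion library 1 to 1.57 in control library 1. The alpha chains were scarce, with Lama2 at 0 and 1.65 CPM, against 3.18 and 19.4 CPM in controls, Lama5 at 1.17 and 11.2 CPM, against 13.5 and 17.1 CPM, and Lama4 at 15 and 5.67 CPM, against 3.39 and 8.91 CPM. Lama3, an epithelial alpha chain, had 52.4 and 3.19 CPM, against 0 and 1.22 CPM in controls. Deletion library 1 thus held most of the Lama3 reads. The log2 fold change of Lama3 was 5.55 ± 2.50 (SE) with an edgeR adjusted p of 0.999, and 2.38 without that library.

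With tTA::miR132, Lamb1-1 had 44.3 and 68.3 CPM, against 45.7 and 64.6 CPM, and Lamb2 had 9.75 and 19.3 CPM, against 11.7 and 28.5 CPM. Lamc1 had 17.3 and 40.2 CPM, against 27.6 and 4.46 CPM in controls. Lama2 had 4.87 and 6.27 CPM, against 5.96 and 25.3 CPM in controls.
For each of these 4 chains the groups overlapped. In the tTA::miR212 table Lamc1 had 72.1, 80.9 and 88.3 CPM, against 81.6, 70.0 and 65.9 CPM in controls. Lamb1-1 had 36.8, 65.4 and 76.9 CPM, against 64.7, 53.1 and 31.8 CPM in controls, and it was the scarcest of the 10 members there. Both overlapped, and their log2 fold changes were 0.14 ± 0.13 (SE) for Lamc1 and 0.26 ± 0.29 for Lamb1-1, at edgeR adjusted p-values of 0.93 and 0.94.

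Col19a1 gave the smallest p of any member in the deletion comparison. It encodes the alpha 1 chain of collagen XIX, a fibril-associated collagen known to be made by hippocampal interneurons and to take part in the formation of their synapses (NM_007733, chr1:24264521-24594276, minus strand, mm9). It had 128 and 87.4 CPM in the deletion libraries, against 39.0 and 44.7 CPM in their controls, a mean of 108 ± 29.0 CPM against 41.8 ± 4.01 CPM (SD, n = 2 each). Both deletion libraries lay well above both controls.
Its log2 fold change was 1.40 ± 0.41 (SE; 95% interval 0.39 to 2.41), with an unadjusted p of 0.015 and an adjusted p of 0.999 in edgeR's test across 10487 genes. Leaving out any one library gave values from 1.05 to 1.68. In the tTA::miR132 table Col19a1 had 31.3 and 62.2 CPM, against 53.6 and 101 CPM in controls, and the groups overlapped. That log2 fold change was -0.78 ± 0.51, with an edgeR adjusted p of 0.997.
The difference between these changes, deletion minus tTA::miR132, was 2.20 on the log2 scale (SE 0.71, 95% interval 0.61 to 3.80). It had an unadjusted p of 0.011 and an adjusted p of 0.999 in the edgeR fit of both tables. Leaving out single libraries gave 1.63 to 2.76. Of the 42 members tested in both tables, 0 passed the adjusted test of the difference (0% of 9671 genes) and Col19a1 was the 1 with an unadjusted p under 0.05 (2% of genes), beside 0 called by DESeq2 (1 gene in all) and 0 by limma-voom (0 genes).

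Fibril-forming collagens numbered 8 tested genes in the deletion comparison, 5 of them above 0 on the fitted log2 scale and 3 below, with 3 separated upward and 1 downward. Across all members, 19 of 49 separated the deletion libraries from their controls, 10 upward and 9 downward, beside 32.3%, 14.3% and 18% of all genes tested. Col5a1, which helps to set fibril width, had 82.2 and 14.0 CPM, against 12.7 and 10.7 CPM in controls. Its log2 fold change of 2.08 ± 0.99 (SE; edgeR adjusted p = 0.999) became 0.24 without deletion library 1. Col2a1, best known from cartilage, had 25.2 and 4.84 CPM, against 1.48 and 2.20 CPM, and Col11a2 had 30.1 and 10.6 CPM, against 5.19 and 5.86 CPM.
In these 3 genes deletion library 1 held the highest value by far. Col27a1 lay the other way, at 1.81 and 9.48 CPM, against 25.1 and 13.9 CPM. The type I chains, the main collagen of meningeal and perivascular fibroblasts, overlapped: Col1a2 had 12.2 and 27.7 CPM, against 7.74 and 15.6 CPM, and Col1a1 had 0 and 12.5 CPM, against 0.318 and 3.78 CPM.

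With tTA::miR132, Col1a2 was lower and Col5a2 higher than in any control library, though neither passed the adjusted test. Col1a2 (NM_007743, chr6:4455696-4491543, plus strand, mm9) had 4.47 and 11.1 CPM in tTA::miR132 libraries, against 26.1 and 38.5 CPM in controls. Its log2 fold change was -2.11 ± 0.88 (SE; 95% interval -4.04 to -0.18), with an unadjusted p of 0.035 and an adjusted p of 0.997 by edgeR, and -2.89 to -1.60 when single libraries were left out. The other type I chain, Col1a1, did not follow Col1a2, at 0 and 27.7 CPM, against 1.92 and 0.843 CPM in controls. The Col1a1 groups overlapped, with a log2 fold change of 3.27 ± 2.59 (edgeR adjusted p = 0.997). Col5a2, the alpha 2 chain of collagen V, had 30.5 and 23.6 CPM, against 6.77 and 10.1 CPM, a log2 fold change of 1.63 ± 0.91 (edgeR adjusted p = 0.997).
In the deletion table the same Col5a2 overlapped its controls, at 0 and 9.48 CPM, against 7.10 and 17.6 CPM. Col5a1 had 16.8 and 16.4 CPM, against 7.47 and 13 CPM, and Col3a1, the fibrillar collagen of vessel walls, had 2.10 and 5.24 CPM, against 16.3 and 0 CPM in controls. In all, 21 of 50 members separated tTA::miR132 libraries from controls, 9 upward and 12 downward, beside 33.1%, 18.8% and 14.3% of genes.

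Fibril-associated collagens other than Col19a1 varied between libraries. Col9a3, a chain of collagen IX, had 19.9 and 27.1 CPM with tTA::miR132, against 30.4 and 51.4 CPM in controls, and 4.68 and 29.6 CPM with the deletion, against 47.0 and 27.0 CPM. The transmembrane and multiplexin collagens were all below 0 in the tTA::miR132 fit, 4 of 4, and none passed the test. Among these, Col25a1, a neuronal collagen also known from amyloid plaques, had 0 and 1.48 CPM, against 2.53 and 12.9 CPM, and Col15a1, of vascular basement membranes, had 5.62 and 11.5 CPM, against 15.4 and 17.8 CPM.
Both separated the groups. Col18a1, the source of endostatin, had 0 and 3.31 CPM, against 9.70 and 0.843 CPM, and Col23a1 had 7.78 and 33.4 CPM, against 42.8 and 17.6 CPM. In the deletion table Col23a1 was at 113 and 21.1 CPM, against 19.0 and 32.7 CPM in controls, where the high value was again that of deletion library 1. In the tTA::miR212 table Col25a1 had 69.8, 106 and 81.6 CPM, against 83.9, 60.0 and 63.6 CPM, the smallest p of the 10 members there (log2 fold change 0.30 ± 0.16 SE, unadjusted p 0.084, edgeR adjusted p 0.90).

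Collagen VI and VIII chains, which form beaded filaments and networks, included Col6a1, at 25.9 and 51.0 CPM in the deletion libraries, against 45.1 and 41.3 CPM in their controls. With tTA::miR132 Col6a1 lay below its controls, at 29.1 and 28.2 CPM, against 45.6 and 37.6 CPM. Col8a2 had 0 and 5.67 CPM with the deletion, against 8.16 and 17.8 CPM, and 12.5 and 6.73 CPM with tTA::miR132, against 8.89 and 14.5 CPM. Only the deletion libraries were apart from their controls in Col8a2. Col4a3bp, the ceramide transfer protein, was more abundant than any of these, with 27.4 and 100 CPM in the deletion, against 120 and 79.4 CPM, and 54.3 and 98.0 CPM with tTA::miR132, against 97.4 and 52.2 CPM.

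Lox, the lysyl oxidase that cross-links collagen and elastin fibres, had no read in either tTA::miR132 library, against 32 and 312 counts, or 3.23 and 37.6 CPM, in the controls. With a floor of 3 counts over the tTA::miR132 group, Lox was at least 148-fold lower there than in the 2 control libraries pooled. Most of the control counts came from control library 2, and the bound does not hold against control library 1 alone. The control libraries themselves lay far apart. Lox had the smallest p of any member in this comparison, 0.0018 unadjusted and 0.997 adjusted by edgeR, and DESeq2 gave an adjusted p of 0.00045, the 1 call of a member by that tool. Without control library 1, whose 32 counts are the lower of that pair, edgeR gave an adjusted p of 0.040, and without control library 2, Lox was not called.
This floor covers counting error only. Of the other lysyl oxidases, Loxl1 had 4.57 and 11.2 CPM in the deletion libraries, against 2.54 and 6.10 CPM in their controls. Loxl2 had 17.8 and 0 CPM, against 0 and 0.122 CPM, and did not pass the filter on low counts.

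Membrane-type metalloproteinases held 2 of the 4 most abundant members. Mmp17, anchored to the cell surface by a lipid tail, had 178 and 175 CPM in the deletion libraries, against 130 and 195 CPM in controls, 195 and 180 CPM with tTA::miR132, against 165 and 175 CPM, and 349, 340 and 346 CPM with tTA::miR212, against 341, 360 and 390 CPM. Mmp24, a neural membrane metalloproteinase, had 101 and 131 CPM in the deletion, against 155 and 136 CPM. With tTA::miR132 Mmp24 had 84.5 and 130 CPM, against 117 and 155 CPM, and with tTA::miR212 140, 122 and 126 CPM, against 129, 144 and 129 CPM.
The log2 fold changes of Mmp24 were -0.31 ± 0.29, -0.40 ± 0.34 and -0.06 ± 0.11 (SE) in these comparisons, none called by edgeR. An uncharacterised transcript on the opposite strand, BC029722, covers 13.6% of the exon bases of Mmp24, and whether the authors counted by strand is not stated in the sources used here.

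Mmp16, another membrane metalloproteinase (NM_019724, chr4:17780628-18045881, plus strand, mm9), was above its controls in both tables. It had 59.7 and 45.2 CPM in the deletion libraries, against 28.8 and 24.4 CPM in controls, a mean of 52.5 ± 10.2 CPM against 26.6 ± 3.12 CPM (SD, n = 2 each). With tTA::miR132 it had 40.2 and 31.8 CPM, against 26.6 and 15.8 CPM. The log2 fold changes were 1.01 ± 0.55 (SE) and 0.73 ± 0.67, with edgeR adjusted p-values of 0.999 and 0.997. Mmp15 had 0 and 14.0 CPM with tTA::miR132, against 19.1 and 46.9 CPM, a fitted log2 fold change of -2.31 ± 1.58 (edgeR adjusted p = 0.997). Without tTA::miR132 library 2, which leaves only the library at 0, edgeR called Mmp15 at an adjusted p of 0.031. Mmp9, a secreted gelatinase tied to synaptic plasticity, was listed only in the tTA::miR132 table and was scarce, at 0.203 and 1.37 CPM, against 9.70 and 0.241 CPM.

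ADAMTS proteases that cleave hyalectans, the aggregating proteoglycans of the brain, comprised 5 tested genes in the deletion table and 6 in the tTA::miR132 table. Adamts8 had 7.55 and 15.6 CPM in the deletion libraries, against 1.17 and 7.08 CPM in controls, and 7.72 and 3.42 CPM with tTA::miR132, against 9.49 and 44.9 CPM. It was thus above its controls in every deletion library and below them in every tTA::miR132 library. Adamts4, which cleaves brevican and aggrecan and is known from oligodendrocytes, went the other way. It had 0 and 7.42 CPM in the deletion, against 8.06 and 15.7 CPM, and 7.24 and 11.2 CPM with tTA::miR132, against 6.36 and 5.66 CPM. Tested as a difference of log2 fold changes, deletion minus tTA::miR132, Adamts8 gave 3.86 ± 2.20 (SE) and Adamts4 -2.24, both at an edgeR adjusted p of 0.999.
Adamts5, the other main aggrecanase, had 0 and 3.65 CPM with tTA::miR132, against 11.8 and 12 CPM. Adamts9 had 5.96 and 9 CPM, against 11.8 and 16.1 CPM. Both lay below all their controls, while Adamts1 and Adamts20 overlapped. In the tTA::miR212 table Adamts4 had 77.4, 71.2 and 76.3 CPM, against 75.8, 57.7 and 64.4 CPM in controls, and a log2 fold change of 0.17 ± 0.14 (edgeR adjusted p = 0.93).

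Timp2, a tissue inhibitor, was the most abundant member. In CPM per kilobase of exon, Timp2 stood at 164 in deletion controls and 129 in tTA::miR132 controls, above 46.7 and 48.7 for Mmp17, 31.1 and 29.1 for Mmp24 and 20.4 and 23.7 for Timp3. Timp2, which also takes part in activating a secreted gelatinase, had 772 and 530 CPM in the deletion libraries, against 556 and 720 CPM in controls. The log2 fold change was 0.06 ± 0.27 (SE; 95% interval -0.61 to 0.73). With tTA::miR132 it had 699 and 574 CPM, against 504 and 503 CPM, and both libraries lay above both controls (log2 fold change 0.30 ± 0.17, edgeR adjusted p = 0.997). With tTA::miR212 the values were 547, 544 and 571 CPM, against 589, 489 and 533 CPM (log2 fold change 0.03 ± 0.08).

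Timp3, an inhibitor held in the matrix, was below its controls in both tables of 2 libraries a group. It had 128 and 136 CPM in the deletion, against 165 and 167 CPM in controls, a mean of 131.7 ± 5.64 CPM against 166 ± 1.16 CPM (SD, n = 2 each). With tTA::miR132 it had 150 and 156 CPM, against 227 and 159 CPM. The log2 fold changes were -0.31 ± 0.26 (SE; 95% interval -0.96 to 0.33) and -0.37 ± 0.27, at edgeR adjusted p-values of 0.999 and 0.997. With tTA::miR212 the groups overlapped, at 148, 148 and 151 CPM, against 177, 149 and 151 CPM. Exons of Syn3, on the opposite strand, cover 21.3% of the exon bases of Timp3, so that reads of the 2 genes may not be told apart.

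**Figure D3:**
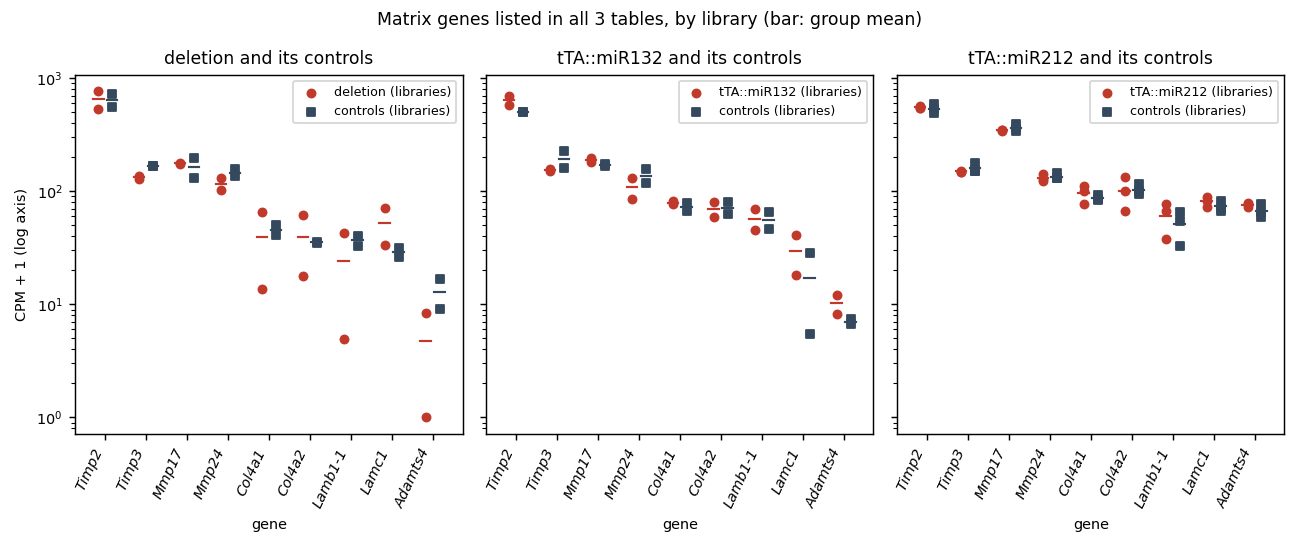
Levels of the 9 members listed in all 3 tables, as CPM + 1 on a log axis, with each library as a point (red circles for the mutant, dark squares for its controls) and the group mean as a bar. Timp2 stands highest in every table, Mmp17, Mmp24 and Timp3 follow, and the groups overlap for all 9 genes in the tTA::miR212 table.

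In the tTA::miR212 table, whose libraries were the least variable, none of the 10 members separated its 3 libraries from the 3 controls (0 of 10, beside 11.4% of genes). Their median log2 fold change was 0.088, against 0.003 over all genes. For the median member the group means differed 1.08-fold and libraries of a group 1.07-fold to 1.19-fold, though a mean of 3 libraries varies less than a single library. Collagen IV was among the 10 members: Col4a1 had 99.6, 110 and 76.9 CPM, against 91.2, 83.9 and 82.6 CPM, and Col4a2 had 98.9, 133 and 66.2 CPM, against 115, 93.1 and 99.2 CPM. With 4 libraries in each of the other tables, separation of the groups is common, and the median log2 fold changes of members were 0.17 for the deletion, against -0.03 over all genes, and -0.35 for tTA::miR132, against -0.002 over all genes. A fitted change below 0 was found in 22 of 49 members with the deletion (52.1% of genes), in 29 of 50 with tTA::miR132 (50.1% of genes) and in 4 of 10 with tTA::miR212 (49% of genes).

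The deletion removes the microRNA and tTA::miR132 adds it, and the design allows these changes to be set side by side. Of the 42 members tested in both, 15 had fitted changes of opposite sign and 27 of the same sign. Among those separated in both tables were Col5a1 and Mmp16, upward in both, Timp3, downward in both, and Adamts8 and Adamts4, in opposite directions. Like counts over the 9671 shared genes were not made, so these counts are not read as a result about the members. Taken alone, the deletion separated its groups in 32.3% of genes tested and tTA::miR132 in 33.1%. These comparisons have no library in common.

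**Figure D4:**
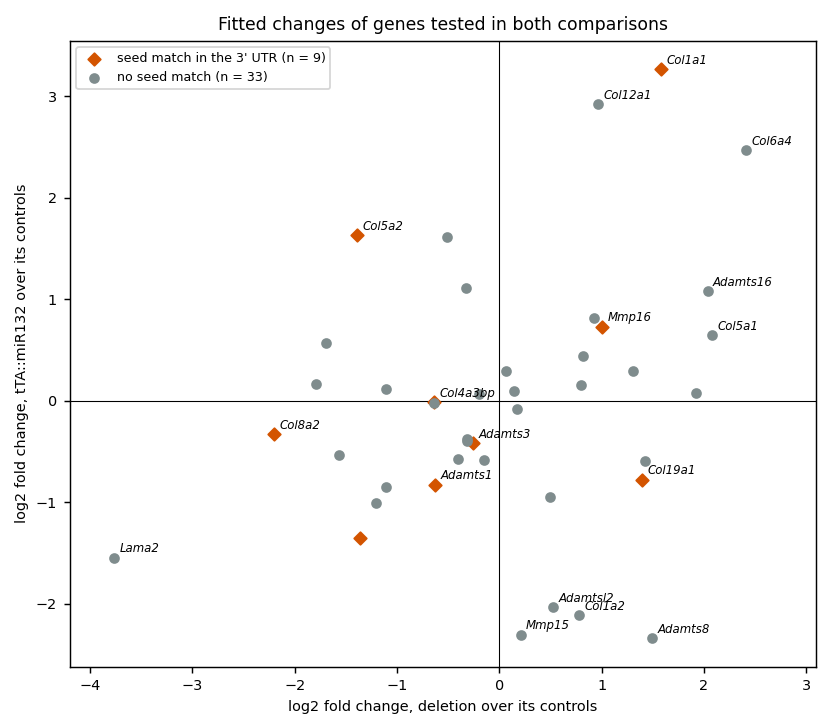
Fitted log2 fold change of the 42 members tested in both tables, deletion over its controls on the x axis and tTA::miR132 over its controls on the y axis, with orange diamonds for genes with a seed match in the 3′ UTR and grey circles for the rest. Col19a1 sits at 1.40 and -0.78, and the diamonds lie in all 4 quadrants.

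Members with a seed match are shown again here by their changes. In the deletion comparison 10 of 49 members held one (20.4%), against 13.4% of 10205 genes with an annotated 3′ UTR, and their median log2 fold change was -0.44, against 0.18 for members without one. With tTA::miR132 it was 11 of 50 (22%), against 13.3% of 10455 genes, with medians of -0.42 and -0.08. In the deletion 4 of the 10 were above 0 and 6 below, and with tTA::miR132 3 of the 11 were above and 8 below. Over all genes tested with a match, 649 were above 0 and 723 below in the deletion, and 681 and 712 with tTA::miR132. Medians of all genes with and without a match were -0.037 and -0.027 in the deletion, and -0.012 and 0.0014 with tTA::miR132. The members' 3′ UTRs were longer than those of all genes, with a median of 1673 bases, against 1312 bases, in the deletion table. None of the 10 members in the tTA::miR212 table held a match, against 15.8% of 4408 genes.
Gene by gene, Col19a1 had both deletion libraries above its controls, while its groups overlapped with tTA::miR132. Adamts8, which holds no match, was above its controls in the deletion and below them with tTA::miR132. How many of all genes, with or without a match, do the same was not counted. Mmp16 was above its controls in both tables, and Col8a2 below its controls in the deletion. Col5a2 was above its controls with tTA::miR132, and Adamts5 below.

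Choroid plexus markers were lower in the deletion libraries, though none passed edgeR's adjusted test. All 15 choroid plexus markers tested, of 20 listed, had a fitted change below 0, beside 52.1% of all genes tested. In 11 of them both deletion libraries lay below both controls, beside 18% of genes. The summed level of the 15 markers was 1010 and 2663 CPM, against 5635 and 6651 CPM in controls. In deletion library 1, 9 of them were at 0 (Aqp1, Calml4, Clic6, F5, Folr1, Kcne2, Otx2, Prlr and Slc4a5), and in library 2, Otx2. With tTA::miR132 the sum was 5163 and 3850 CPM, against 6700 and 5162 CPM, with 7 of 17 above 0 and 10 below, and with tTA::miR212, where 4 were listed, 1564, 303 and 1469 CPM, against 1551, 1342 and 637 CPM. Markers of the thalamus, which lies next to the hippocampus, summed to 231.5, 498 and 287 CPM with tTA::miR212 (5 of 9 listed, all above 0 in the fit), against 250.1, 194 and 220 CPM in controls. In the deletion they summed to 241 and 154 CPM (7 of 9), against 312 and 192 CPM, and the groups overlapped. Oligodendrocyte lineage markers summed to 4906 and 4744 CPM with tTA::miR132 (11 of 12, with 8 above 0 in the fit and 3 below), against 3901 and 4104 CPM in controls, so that both libraries lay above both controls, as they did for Adamts4. In the deletion they summed to 3880 and 5789 CPM, against 5164 and 5526 CPM, and overlapped. The part of choroid plexus, thalamus or oligodendrocytes in the changes of matrix genes was not tested. Endothelial markers (14 of 15 listed) summed to 354 and 400 CPM in the deletion, against 365 and 386 CPM, and 338 and 339 CPM with tTA::miR132, against 319 and 474 CPM. Meningeal and perivascular fibroblast markers summed to 1728 and 1445 CPM in the deletion (12 of 15), against 1543 and 1489 CPM. With tTA::miR132 they summed to 1593 and 1340 CPM (13 of 15), against 1551 and 1497 CPM. Markers of excitatory hippocampal neurons summed to 7795 and 8271 CPM in the deletion (11 of 12), against 7342 and 8070 CPM.

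Genes that work with the members were read from separate lists. Of the deletion comparison's basement membrane and laminin partners 11 of 15 were tested, 8 above 0 and 3 below, with a median log2 fold change of 0.24, and with tTA::miR132 13 were tested, 3 above and 10 below, with a median of -0.50. Enzymes that fold, modify and process collagen numbered 13 in the deletion, 5 above 0 and 8 below (median -0.39), and 17 with tTA::miR132, 10 above and 7 below (median 0.09). Matrix receptors such as integrins numbered 19 in the deletion, 12 above and 7 below (median 0.54), and 18 with tTA::miR132, 6 above and 12 below (median -0.34). Perineuronal and hyaluronan matrix genes split 6 and 6 in the deletion and 7 and 5 with tTA::miR132.
Small leucine-rich proteoglycans and elastic fibre genes were 3 above 0 and 11 below in the deletion (median -0.42) and 8 and 9 with tTA::miR132 (median -0.44). Other matrix proteases and protease inhibitors were 5 above and 9 below in the deletion (median -0.14) and 6 and 8 with tTA::miR132 (median -0.20). No gene of these lists passed edgeR's adjusted test in any comparison, as no gene did (0% of genes in each).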

How the data were processed

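Hippocampal polyadenylated RNA was sequenced, and reads were aligned to mm9 with Bowtie 0.12.7, per the series' design text, which also names Cufflinks 1.2. The deposited tables hold raw read counts per RefSeq gene (deletion, tTA::miR132) or Ensembl transcript (tTA::miR212). The authors' q-values were read from the deposited tables and used only as such. Another 14 per-library columns of normalized values were not used. The count columns name a group and a number, which was taken as the library number.

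Counts were tested with edgeR 4.0.16 (TMM, filterByExpr, quasi-likelihood, Benjamini-Hochberg over all genes tested, threshold 0.05) in R 4.3.3. DESeq2 1.42.0, limma-voom (limma 3.58.1), other scalings, no filter, each library left out and the library number as a block were alternatives. In the tTA::miR212 table, where 2555 symbols have more than 1 transcript, that of the highest mean count was used. The difference between deletion and tTA::miR132 was fitted over 9671 genes shared by RefSeq identifier. The test scripts were checked on simulated data, with a spread set below that of the deletion and tTA::miR132 tables. That check does not show which changes could be detected at the spread of these tables. CPM divides counts by the library's total, and spreads between libraries use log2(CPM + 1). A floor of 3 counts stands for groups at 0. Nothing ties replicates to separate animals beyond the pooling, so p-values measure the spread between these libraries. Library numbers did not pair samples: deviations of same-numbered libraries correlated at 0.014 (deletion), 0.015 (tTA::miR132) and -0.079 to 0.021 (tTA::miR212).

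Members, lists and rules were chosen with earlier results of these data known. Fold changes were read for the 8 members with the smallest p in each comparison, members of all 3 tables and members separated in both RefSeq tables. Only some of these fold changes are printed. Levels are given for the most abundant members, collagen IV, laminins, lysyl oxidases and TIMPs, and further members were named after their values were seen. A planned ranking by likeness to Col4a1 was not made, as a table of 4 libraries is too small for it. Positions of all 110 listed member rows overlapped the same gene in GENCODE M1. One item among the members counted is not reported here by name. RefSeq promoters were listed for 35 of 58 members.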

Additional observations from a re-analysis of the deposited data

Results flagged for a closer look

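Adamts8 and Adamts4 were flagged because every deletion library moved one way from its controls and every tTA::miR132 library the other way. How many of all genes do the same was not counted. For Adamts8 the deletion minus tTA::miR132 log2 fold change was 3.86 (SE 2.20), with an unadjusted p of 0.109 and an edgeR adjusted p of 0.999. Leaving out single libraries gave 2.28 to 5.67. For Adamts4 it was -2.24, with an edgeR adjusted p of 0.999 and values of -10.40 to -1.25, the most negative without deletion library 2, which leaves a library at 0. Both genes are scarce, at no more than 44.9 CPM in any of these 8 libraries.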

How the results depend on the processing

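With 2 libraries a group, the counts of calls turned on single libraries, and the low counts of most members limit precision. In the deletion comparison 0 genes were called by edgeR, against 5 by DESeq2, and leaving out single libraries gave 1 to 4527 genes and 0 to 28 members. The median member log2 fold change, 0.17, was -0.31 with limma-voom and -0.31 with the library number as a block, and -0.13 to 0.44 leaving out single libraries. With tTA::miR132, DESeq2 called 39 genes and 1 member and limma-voom 2 genes, and leaving out single libraries gave 0 to 111 genes, 0 to 1 members and medians of -0.66 to -0.085. With tTA::miR212, leaving out single libraries gave 0 to 18 genes and 0 members. The difference fit gave 1 gene by DESeq2, and 0 to 1002 genes and 0 to 4 members leaving out single libraries, with medians of -0.14 to 0.41.

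Library numbers did not pair the samples, and with the number as a replicate block 0 genes were called for the deletion, 1 for tTA::miR132 and 1 for tTA::miR212, and 0 members in each. Under the block Col4a2 was -0.075 in the deletion, and limma-voom gave -0.033. Lamb1-1 was 0.030 with tTA::miR132 when scaled by library totals alone.

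Of 617 values of named members under the alternatives, 582 kept their sign and side of the threshold, 16 passed it and 19 changed sign. Leaving out single libraries changed the sign of log2 fold changes with these ranges. In the deletion they were -0.30 to 2.20 for Col23a1, -1.74 to 0.53 for Col4a1, -0.95 to 0.81 for Col4a2, -3.11 to 0.22 for Lamb1-1, -0.13 to 0.46 for Mmp17 and -0.28 to 0.34 for Timp2. With tTA::miR132 they were -0.062 to 0.22 for Col4a1, -0.31 to 0.14 for Col4a2 and -0.35 to 0.29 for Lamb1-1. With tTA::miR212 they were -0.33 to 0.17 for Col4a2 and -0.028 to 0.10 for Timp2. For the difference they were -0.38 to 2.26 for Col5a1. The cause of these changes was not tested.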
